A study of Mus musculus with 12 samples.

Results

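The solute carriers (SLC) are the largest group of membrane transport proteins, and their genes are named by family number and member letter. A gene was taken as a member when its single annotated symbol began with Slc and a digit, leaving out Slc2a1, Slc2a2, Slc3a2, Slc7a5, Slc11a2, Slc15a1, Slc16a3 and Slc40a1. The rule found 262 Slc symbols and kept 254 of the 12393 genes that the arrays measured. Of these, 158 had 1 probe set and 96 had more, and the probe set with the highest mean over the arrays stood for each gene. The carriers belonged to 48 families, and 3 members, the scaffold genes Slc9a3r1 and Slc9a3r2 and Slc4a1ap, are named for a carrier without being one.

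BMEL cells (bipotential mouse embryonic liver cells) grow as immortal lines and can be led in culture towards hepatocytes or towards bile duct cells. The lines 9A1 and 14B3 were isolated independently from embryonic livers of day 14, of the cross CBA/J x C57Bl/6J, and each line stands for 1 isolate. No transgene or drug is named in the labels. Both lines were kept under 3 conditions: basal culture, suspension as aggregates, and Matrigel, which is a gel of basement membrane proteins. Aggregates are labelled 5 days and Matrigel cultures 10 days, except replicate 1 of 14B3 in Matrigel, which is labelled 5 days. No time is labelled for basal culture, so culture form and time in culture cannot be told apart. Every one of the 6 groups held 2 arrays, which gave 4 arrays per culture and 6 per line.

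Solute carriers move amino acids, sugars, ions, metals, vitamins, nucleosides, organic ions and fatty acids across membranes. Most work by facilitated diffusion, exchange, or cotransport driven by the gradients that the sodium pump and proton pumps keep up. Hepatocytes use them to take up bile salts, amino acids and carnitine, and the brush borders of gut and kidney use them to absorb nutrients. The mitochondrial family Slc25 links the cytosol to the urea cycle, fatty acid oxidation and ATP export. Some carriers work only with a partner, as the heavy chain rBAT, encoded by Slc3a1, does with its light chain, encoded by Slc7a9, in the uptake of cystine and basic amino acids.

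Stretches of promoter are shown for that pair, because its genes moved together, and for the cystine and glutamate exchanger gene Slc7a11, which moved the other way. Each is the 120 bases before the annotated start, 5′ to 3′ on the gene's strand, from RefSeq on GRCm38.p6. Capitals mark every match, on either strand, to CAAAGTCCA, a core of the type bound by HNF4, or in Slc7a11 to TGATGNAAN, the shared form of the C/EBP and ATF response element.
Slc3a1, chr17:85028227-85028346, plus strand: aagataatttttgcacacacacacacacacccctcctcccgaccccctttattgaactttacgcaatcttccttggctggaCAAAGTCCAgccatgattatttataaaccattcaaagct
Slc7a9, chr7:35448972-35449091, plus strand: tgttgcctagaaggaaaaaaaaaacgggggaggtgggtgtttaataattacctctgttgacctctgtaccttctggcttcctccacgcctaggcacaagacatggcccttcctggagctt
Slc7a11, chr3:50443614-50443733, minus strand: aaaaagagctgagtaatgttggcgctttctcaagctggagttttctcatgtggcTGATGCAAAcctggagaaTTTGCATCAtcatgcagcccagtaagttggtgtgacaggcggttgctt
The match in Slc3a1 begins 39 bases before the start, and the stretch of Slc7a9, for which 2 starts are listed, holds none. The matches in Slc7a11 begin 66 and 48 bases before the start and lie on opposite strands. In the 250 bases before the start, CAAAGTCCA was found in 0.384% of 32851 promoters and in 2 of the 201 members with a listed promoter, and TGATGNAAN in 3.44% and in 5 members. The motifs were chosen with results known, do not overlap each other, and a match describes letters only.

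Values are log2 of the signal intensity, and a difference of 1 log2 unit is a 2-fold change. The median intensity of an array lay between 268 and 281. Genes were tested with limma, and a gene was called when its Benjamini-Hochberg adjusted p over all 12393 genes was below 0.05. The design names duplicate biological replicates and says no more, so the p-values rest on the spread between these arrays alone, part of which may be technical. RNA came from whole cultures, so fewer cells of a type and less RNA per cell cannot be told apart.

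The labelled cell type was checked on marker lists. Counts here and in the next paragraph stand against the shares of all genes called. These were 22.9% higher and 23.4% lower in aggregates, and 14.1% higher and 14.3% lower in Matrigel. Of 8 hepatoblast or hepatocyte markers, 5 rose and 1 fell in aggregates, and 6 rose in Matrigel. Their summed intensity ran from 29580 to 34381 in basal culture, 56525 to 79248 in aggregates and 59821 to 67650 in Matrigel. Gut epithelium markers moved with the same cultures: 5 of 7 rose in aggregates and 4 in Matrigel, and their summed intensity ran from 6937 to 10526, from 36141 to 44875 and from 23733 to 30151. Fabp2, the intestinal fatty acid binding protein, went from a mean of 6.56 to 13.69 and 12.79, while Cdx1 and Chga were not called in these comparisons. The part of gut type cells in the results below was not tested. No kidney tubule marker (5 measured, of which Slc12a1, Slc12a3 and Slc34a1 are members) and no erythroid marker (5 measured) was called in either culture. Of 7 haematopoietic markers, 2 rose and 1 fell in aggregates and likewise in Matrigel, and their summed intensity ran from 2613 to 3448, from 2797 to 5290 and from 2391 to 3640. Of 4 bile duct markers, Epcam rose by 5.00 in aggregates and 4.74 in Matrigel, and Krt7 and Sox9 fell in aggregates, by 2.29 and 0.47. The summed intensity of the 4 ran from 15544 to 20057, from 16285 to 20093 and from 18257 to 22369.

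Markers of stellate cells or fibroblasts stood out in Matrigel 9A1. Acta2, smooth muscle actin, read 11.17 and 10.62 there, 8.82 and 8.84 in Matrigel 14B3, and 8.63 to 9.08 in basal culture. Of the 7 such markers, Acta2 and Col1a1 rose in Matrigel, and Reln rose by 0.28 in aggregates. Their summed intensity ran from 1267 to 1419 in basal culture, 1329 to 1505 in aggregates and 1274 to 3707 in Matrigel. Of 6 endothelial markers, Cdh5 rose in Matrigel by 0.50, and it read 7.02 and 7.23 in 9A1 and 8.47 and 8.87 in 14B3. Their summed intensity ran from 752 to 1006, from 865 to 1000.0 and from 676 to 1223. The part of these cell types in the results was not tested.

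Levels of 15 markers of blood, endothelial and kidney cells that no culture or line contrast called show where dim signals lie. Markers with a call were left out, among them the dim Ptprc, which rose by 0.41 in aggregates. Brighter blood markers were left out too, as Csf1r and Cd14, with basal means of 9.4 and 10.8. In aggregates Csf1r rose by 1.48 and Cd14 fell by 0.68. The range of differences is therefore limited by leaving out called markers. Levels of the 15 ran from 4.74 to 9.24 log2 units, with a median of 7.18. The upper end is Aqp2 on 1 array, replicate 2 of the 14B3 aggregates. The range is wide, and the median of the means of all genes, 8.46, lies within it. All 15 were higher in aggregates than in basal culture, by 0.02 to 0.39 (median 0.16), and all 15 were lower in Matrigel than in aggregates, by a median of -0.24. Small changes of dim members are of this size, and a level in this range is not shown to lie above background, so a difference that starts or ends there may be too small and is given in log2 units, without a fold.

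The first comparison asked which carriers change between basal culture and aggregates. Members rose far more often than they fell. In aggregates 119 of 254 members were called, 95 higher and 24 lower, against 46.3% of all genes. The share of members that was higher was 37.4%, against 22.9% of all genes, and the share that was lower was 9.45%, against 23.4%. The median difference was 0.21 over members and 0.10 over all genes. Calls of at least 1 log2 unit numbered 33 rises and 11 falls, 44 members, against 15.6% of all genes. The arrays of the cultures did not overlap for 115 members, against 46.4% of all genes.

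In counts of calls, rises exceeded falls among both brighter and dimmer members. Among the 116 members brighter than the median gene, 59 rose (all such genes 30.5%) and 17 fell (35.3%). Among the 138 dimmer members, 36 rose (15.4%) and 7 fell (11.4%). The median difference of the brighter members was 0.30, against -0.01 for all such genes. That of the dimmer members was 0.17, against 0.12 for all such genes and 0.16 for the 15 uncalled markers, so it was of the size of their shift.

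Members were also counted by the substrate class of their family, against 22.9% of all genes called higher and 23.4% lower. Rises and falls were 10 and 7 of 45 for amino acid families, 16 and 3 of 33 for mitochondrial carriers, and 12 and 0 of 26 for organic ions and bile salts. They were 12 and 3 of 24 for metals, 9 and 0 of 24 for sugars, 9 and 3 of 36 for ions and pH, and 8 and 3 of 23 for nucleosides and nucleotide sugars. Smaller classes gave 7 and 2 of 15 for vitamins and choline, 3 and 0 of 9 for carboxylates and sulfate, 4 and 0 of 9 for vesicular carriers, and 3 and 0 of 5 for fatty acids. Family Slc66 had 1 rise and 1 fall among 2 genes, and the 3 genes only named for a carrier had 1 rise and 2 falls. In the 5 classes without a call of a fall by limma, 0 members were lower at an unadjusted p below 0.05. The classes are set by family number, so a few members carry other substrates than their class is named for.

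**Figure D1:**
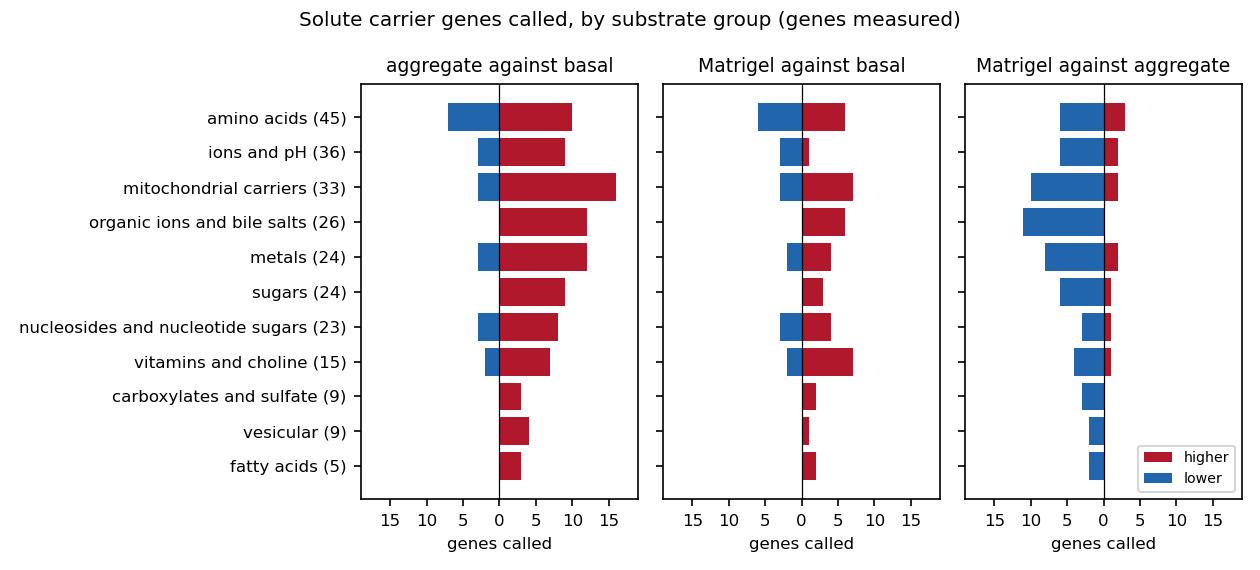
Number of solute carrier genes called higher (red, to the right) or lower (blue, to the left) in each comparison of cultures, by substrate class, with the number of measured genes in brackets and without family Slc66 and the genes only named for a carrier. In aggregates against basal culture mitochondrial carriers had 16 rises and 3 falls, and no organic ion, sugar, carboxylate, vesicular or fatty acid carrier fell. In Matrigel against aggregates most bars lie on the lower side.

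Among amino acid carriers, subunits of the brush border uptake system rose and several carriers of neutral amino acids fell. Slc3a1, the heavy chain rBAT (Entrez Gene 20532), read 6.57 and 6.82 in basal 9A1 and 6.65 and 7.13 in basal 14B3. Aggregates read 11.67 and 12.08 in 9A1 and 11.21 and 11.25 in 14B3, and Matrigel cultures 10.20 and 10.47, and 9.74 and 9.83. The cultures did not overlap and stood in the order basal, Matrigel, aggregate in each line. Slc3a1 rose by 4.76 ± 0.14 (SE) log2 units in aggregates, with an adjusted p of 2.94e-10 by limma. Its partner Slc7a9 (Entrez Gene 30962) read 6.90, 7.40, 7.45 and 7.61 in basal culture, 11.19, 11.69, 10.83 and 10.53 in aggregates and 10.99, 10.79, 10.21 and 10.23 in Matrigel, 9A1 first. It rose by 3.72 ± 0.14, with no overlap between aggregate and basal arrays.

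Slc6a20a, a proline and imino acid carrier of brush borders (Entrez Gene 102680), rose by 3.26 ± 0.17, but unevenly. Basal arrays read 5.37 to 5.87, the 9A1 aggregates 10.34 and 10.43, and the 14B3 aggregates 7.81 and 7.06. Its near copy Slc6a20b rose by 0.61, and reads of a probe set cannot be assigned between near copies with certainty. Slc7a7, a light chain that exports basic amino acids, rose by 1.92 ± 0.16, and the creatine carrier gene Slc6a8 by 1.91 ± 0.11. Slc38a3, a glutamine carrier of mature hepatocytes, rose by 0.71 ± 0.13. The aggregates of Slc38a3 read 9.16 to 9.46 and the basal arrays 8.44 to 8.85.

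**Figure D2:**
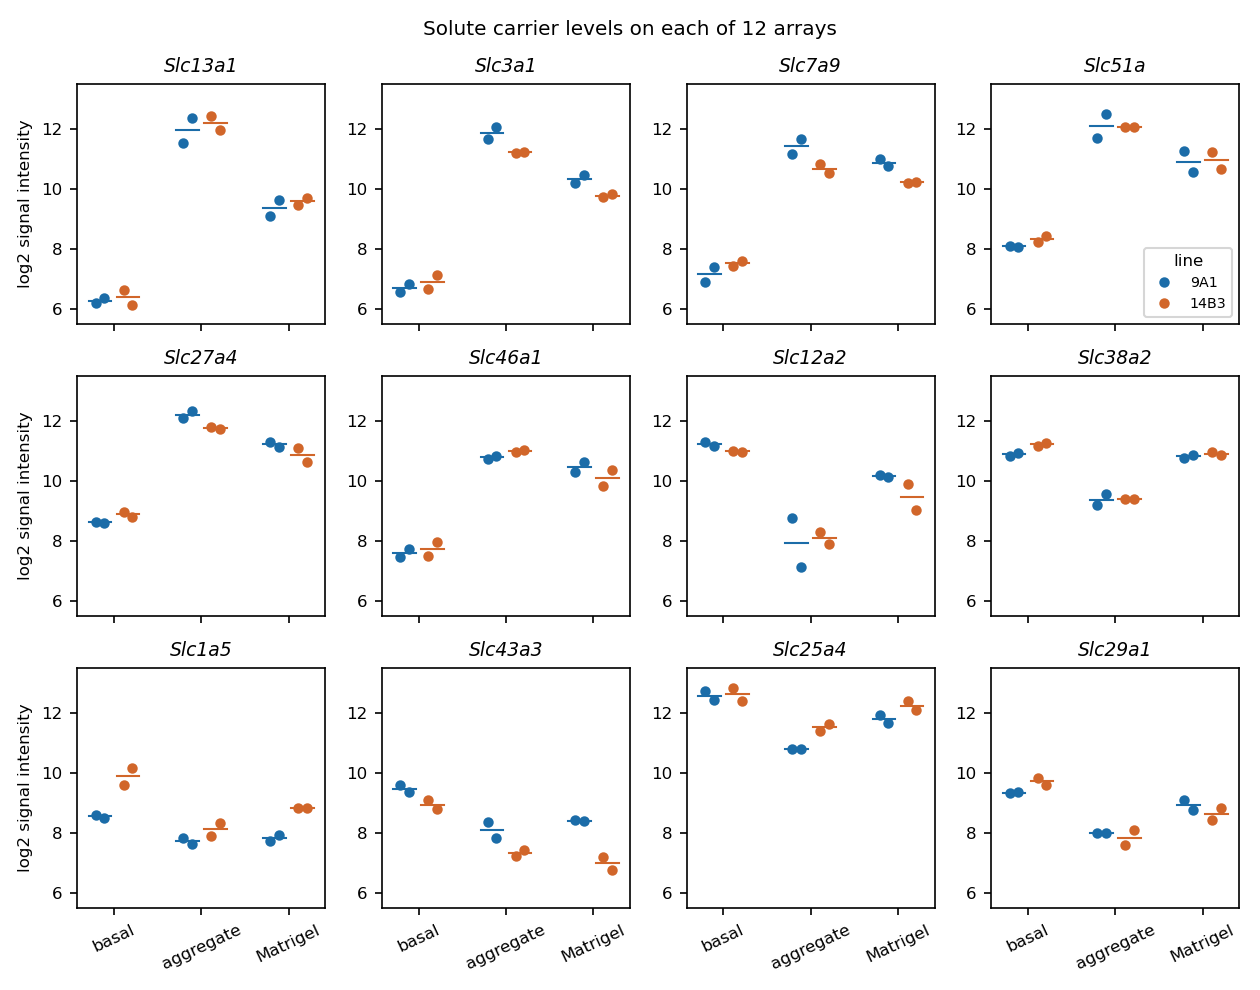
Log2 signal intensity of 12 solute carrier genes on each array, by culture and line, with points for the 2 arrays of a group and a line at their mean. Slc13a1, Slc3a1, Slc7a9, Slc51a, Slc27a4 and Slc46a1 were lowest in basal culture and highest in aggregates. Slc12a2 and Slc29a1 were lowest in aggregates and intermediate in Matrigel, and Slc38a2 in Matrigel lay near its basal level.

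The 7 falls in the amino acid families were those of Slc38a2, Slc1a5, Slc1a4, Slc7a6, Slc7a11, Slc7a1 and Slc43a3. Slc38a2, a sodium-coupled carrier that cells raise when amino acids are short (Entrez Gene 67760), read 10.86, 10.95, 11.16 and 11.29 in basal culture and 9.20, 9.56, 9.40 and 9.39 in aggregates. It fell by 1.68 on the log2 scale (SE 0.10), with an adjusted p of 7.96e-08 by limma. Slc1a5, the glutamine carrier of many dividing cells, read 8.51 to 10.19 in basal culture and 7.64 to 8.34 in aggregates, and fell by 1.30. Slc1a4, a related neutral amino acid carrier, fell by 1.02, and Slc7a6, the near relative of Slc7a7, fell by 1.68. So Slc7a6 and Slc7a7, which serve the same heavy chain, moved in opposite directions.

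Slc7a11, which brings in cystine for glutathione, fell by 0.58 ± 0.13 with an adjusted p of 0.0031. Its basal arrays read 7.20 and 7.66 in 9A1 and 8.08 and 8.39 in 14B3, while all aggregate arrays lay between 7.04 and 7.40. The lower basal array of 9A1 thus lay within the range of the aggregates. Slc7a1, a carrier of basic amino acids, fell by 0.50. Slc43a3, grouped here by its family although the protein is known as a nucleobase carrier, fell by 1.50 ± 0.14, from 8.79 to 9.59 in basal culture to 7.22 to 8.36 in aggregates.

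The sulfate carrier gene Slc13a1 (Entrez Gene 55961), whose protein takes up sulfate across brush borders, showed the largest measured log2 rise of any member, from basal levels in the range of dim signals. It read 6.18, 6.35, 6.64 and 6.12 in basal culture, 11.54, 12.40, 12.45 and 11.98 in aggregates, and 9.11, 9.63, 9.46 and 9.72 in Matrigel. It rose by 5.77 ± 0.20, with an adjusted p of 1.19e-09 by limma. Slc16a1, a proton-coupled lactate carrier, rose by 0.75 ± 0.11, with basal arrays at 10.70 to 10.97 and aggregates at 11.39 to 11.78.

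Of the 5 measured fatty acid carrier genes of family Slc27, 3 rose. Slc27a4, an acyl-CoA synthetase and uptake protein of gut and other tissues (Entrez Gene 26569), read 8.61 to 8.97 in basal culture, 11.76 to 12.34 in aggregates and 10.63 to 11.32 in Matrigel. It rose by 3.24 ± 0.12. Slc27a2, a liver acyl-CoA synthetase, rose by 0.73 ± 0.14. Slc27a5, which joins bile acids to coenzyme A in hepatocytes, averaged 7.19 ± 0.20 (SD, n = 4) in basal culture and 7.49 ± 0.12 in aggregates and was not called, with an adjusted p of 0.0896 by limma that became 0.0280 with a block for replicate.

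Among bile salt and organic ion carriers, 12 of 26 rose and none fell, against 22.9% and 23.4% of all genes. All 26 differences were above 0, from 0.08 to 3.89, as were those of 61.9% of all genes and of all 15 uncalled markers. In Matrigel 14 of the 26 were above 0, against 41.5% of all genes. Slc51a, a subunit of the basolateral bile acid exporter (Entrez Gene 106407), read 8.09, 8.08, 8.22 and 8.44 in basal culture, 11.71, 12.53, 12.07 and 12.08 in aggregates, and 11.27, 10.56, 11.26 and 10.67 in Matrigel. It rose by 3.89 ± 0.20. Slc22a5, the plasma membrane carnitine carrier, rose by 2.02 ± 0.11 and Slc47a1, a proton-coupled exporter of organic cations, by 1.73 ± 0.13. By contrast Slc10a1, the sodium-coupled bile salt uptake carrier of hepatocytes, read 6.29 to 6.54 in basal culture and 6.66 to 6.86 in aggregates. Its difference of 0.34 is of the size of those of the uncalled markers, whose range is limited by leaving out called ones. The call of Slc10a1 was lost without replicate 1 of basal 9A1 (adjusted p = 0.0688) or replicate 2 of aggregate 9A1 (adjusted p = 0.0601).

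Of the mitochondrial family, 16 of 33 members rose and 3 fell. Slc25a15, which carries ornithine into mitochondria for the urea cycle, read 8.91 and 8.32, and 8.84 and 8.19, in basal culture. Its aggregates read 11.16 and 11.48 in 9A1 and 10.71 and 9.95 in 14B3. It rose by 2.26 ± 0.22. Slc25a20, which carries acylcarnitines in for oxidation, rose by 2.04 ± 0.12, so that both carnitine carriers, this and Slc22a5, rose about as much. Slc25a10, a dicarboxylate carrier, rose by 1.33, and Slc25a37, which brings iron into mitochondria, by 1.20.

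Falls in the family were led by Slc25a30 and Slc25a4. Slc25a4, an exchanger of ADP and ATP typical of heart and muscle (Entrez Gene 11739), read 12.41 to 12.85 in basal culture, 10.81 to 11.65 in aggregates and 11.69 to 12.40 in Matrigel. It fell by 1.44 (SE 0.13), 2.71-fold. One of its other 3 probe sets, a dim one, was not called. The mitochondrial carrier gene Slc25a30 fell by 1.78 (SE 0.14). Slc25a13, the aspartate and glutamate carrier that serves the urea cycle, read 9.23 to 9.78 in basal culture and 9.22 to 9.82 in aggregates and was not called (adjusted p = 0.384 by limma).

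In the sugar families 9 of 24 members rose and none fell. Slc37a4, which moves glucose 6-phosphate into the endoplasmic reticulum for glucose release, read 8.99, 9.10, 9.47 and 9.48 in basal culture and 11.43, 11.71, 10.77 and 10.66 in aggregates. It rose by 1.88 ± 0.11. Slc2a9, a urate carrier of liver and kidney, rose by 1.00 ± 0.11. Slc5a1, the sodium-coupled glucose carrier of the gut brush border, read 6.74 to 7.21 in basal culture and 7.06 to 7.40 in aggregates. It was not called (adjusted p = 0.186 by limma, 0.0438 with the replicate block), although gut markers rose in the same arrays.

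Of 15 vitamin and choline carriers, 7 rose and 2 fell. Slc46a1, the proton-coupled folate carrier, read 7.46, 7.72, 7.49 and 7.97 in basal culture, 10.75, 10.84, 10.98 and 11.03 in aggregates and 10.31, 10.63, 9.85 and 10.39 in Matrigel. It rose by 3.24 ± 0.15, and its other probe set was called the same way. Slc23a1 and Slc23a2, the carriers of vitamin C, rose by 3.18 ± 0.14 and 1.74 ± 0.12. Basal arrays of Slc23a1 read 7.74 to 8.07, the 9A1 aggregates 11.41 and 11.54, and the 14B3 aggregates 10.68 and 10.46. Slc19a2, a thiamine carrier, fell by 0.48, and the choline transporter-like gene Slc44a2 fell by 1.45 (SE 0.16).

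Ion carriers held both the largest measured fall of any member and a large rise. Slc12a2, the basolateral cotransporter of sodium, potassium and chloride (Entrez Gene 20496), read 11.31, 11.19, 11.01 and 10.98 in basal culture, 8.75, 7.14, 8.29 and 7.89 in aggregates and 10.21, 10.13, 9.92 and 9.04 in Matrigel. It fell by 3.10 (SE 0.29), and its aggregates were more spread than its basal arrays. Its other 2 probe sets fell as well, with log2 differences of -2.11 and -2.96. Slc26a6, an apical anion exchanger, rose by 3.20 ± 0.15, from 7.89 to 8.19 in basal culture to 10.87 to 12.01 in aggregates.

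The phosphate carrier genes Slc20a1 and Slc20a2 went opposite ways, by 0.62 ± 0.17 and -0.55 ± 0.10. Slc12a4, a potassium and chloride exporter, fell by 0.79. Slc4a2, a chloride and bicarbonate exchanger, rose by 0.36, a call that was lost when any 1 of 6 arrays was left out, with adjusted p-values of 0.0603 to 0.174. Among ion carriers of other epithelia, Slc26a3 of the colon, Slc34a2 of the lung and gut, and Slc4a1 of red cells were not called, with differences of 0.06, 0.17 and 0.05.

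Metal carriers rose in 12 of 24 cases. Slc39a14, an importer of zinc, iron and manganese that liver uses, read 9.04 to 9.32 in basal culture and 10.45 to 11.22 in aggregates. It rose by 1.72 ± 0.13. Slc39a9 rose by 1.29 ± 0.12 and the copper importer gene Slc31a1 by 1.14 ± 0.13, whereas Slc39a7, which releases zinc from the secretory pathway, fell by 0.85. The magnesium carrier gene Slc41a1 fell by 0.58.

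Among nucleoside and nucleotide sugar carriers, Slc35f5 rose by 2.78 ± 0.12, from 8.08 to 8.82 in basal culture to 11.07 to 11.40 in aggregates. Slc35c1, which brings GDP-fucose into the Golgi, rose by 1.09 ± 0.14. The equilibrative nucleoside carrier gene Slc29a1 fell by 1.61 (SE 0.14), from 9.34, 9.36, 9.85 and 9.60 in basal culture to 7.99, 8.01, 7.58 and 8.11 in aggregates. Slc18a1, a vesicular monoamine carrier, rose by 2.18 ± 0.13. The scaffold genes moved apart: Slc9a3r1, which anchors apical carriers to ezrin, rose by 1.72 ± 0.12, and Slc9a3r2 fell by 1.72 (SE 0.17). All 3 probe sets of Slc9a3r1 rose and 5 of the 6 of Slc9a3r2 fell.

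**Figure D3:**
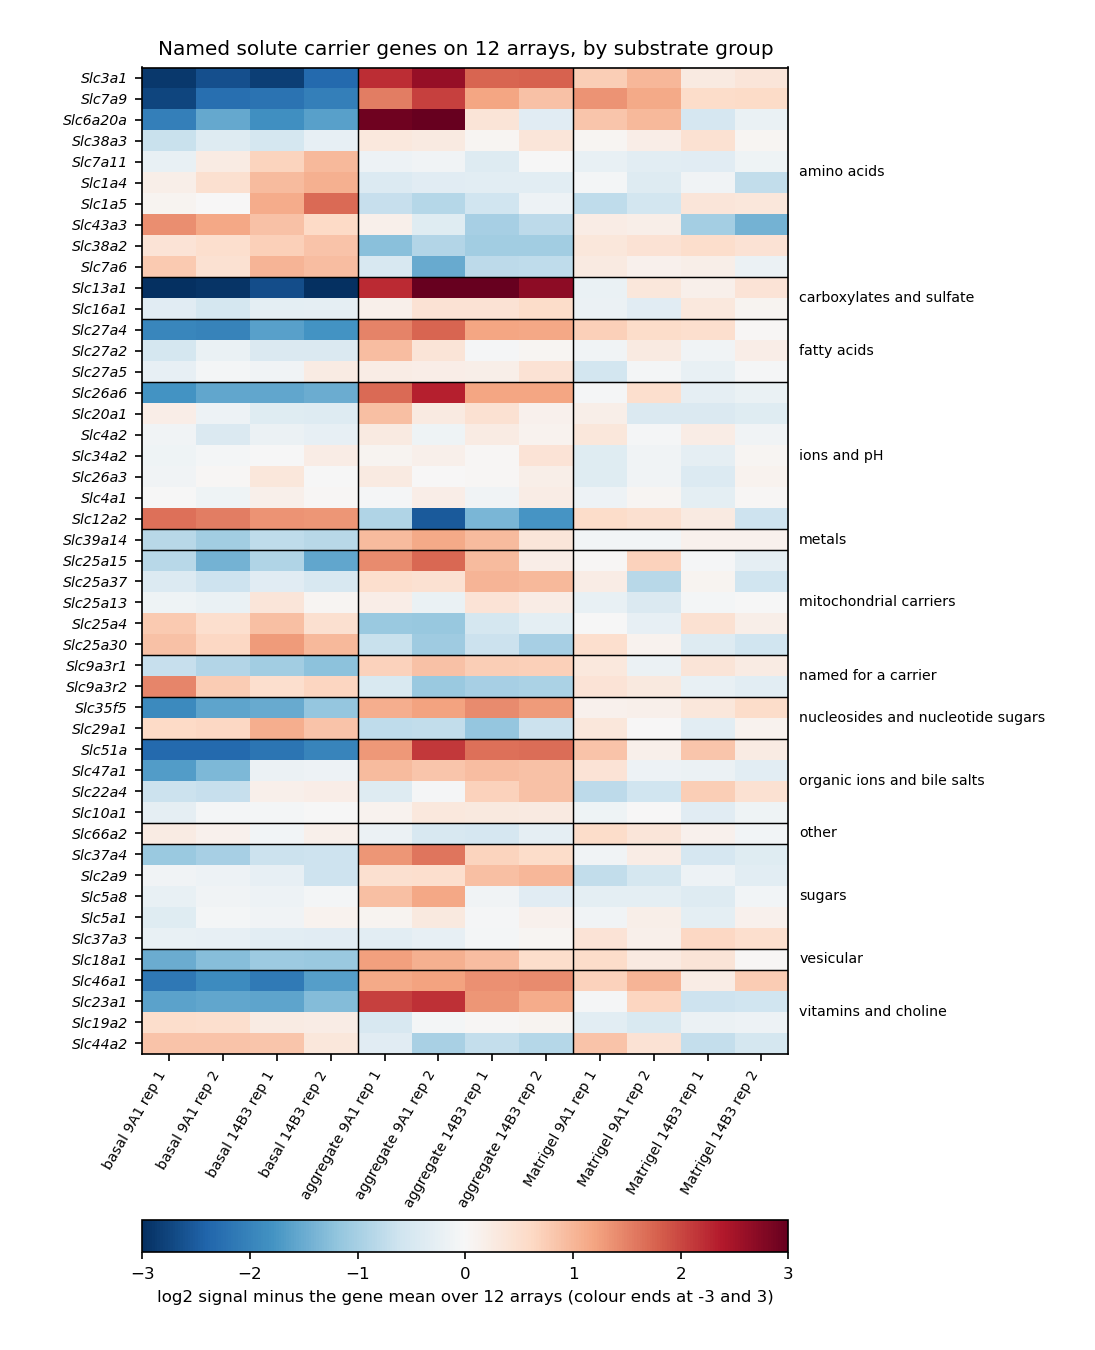
Log2 signal of the named members on each of the 12 arrays, as the difference from the gene's mean over arrays, grouped by substrate class, with red above and blue below the mean. Within most classes the genes high in aggregates were intermediate in Matrigel. Slc6a20a was highest in the 9A1 aggregates, at 10.34 and 10.43, against 7.81 and 7.06 in the 14B3 aggregates.

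Matrigel cultures were compared with basal culture to ask the same question for growth in a gel. Fewer members were called: 64 of 254, of which 44 were higher and 20 lower, against 28.4% of all genes (14.1% higher, 14.3% lower). The median difference was 0.01 over members and -0.04 over all genes. Arrays did not overlap for 58 members, against 26.2%. Calls of at least 1 log2 unit numbered 19 rises and 3 falls, against 6.03% of all genes. Of the 116 brighter members 39 rose (all such genes 21.0%) and 16 fell (20.8%), and of the 138 dimmer members 5 rose (7.13%) and 4 fell (7.89%). This comparison shares its basal arrays with the aggregate comparison, so agreement between them is partly built in: 43 members were called higher in both (12.4% of all genes) and 20 lower in both (13.4%), 52 were higher in aggregates alone and 4 lower in aggregates alone. Calls in 1 culture alone were not counted over all genes, of which 22.9% were higher in aggregates and 12.4% in both cultures. Slc37a3, related to the glucose 6-phosphate carrier, was the 1 member called in Matrigel but not in aggregates, and it rose by 0.70 ± 0.09. Its Matrigel arrays read 8.69 to 9.15, its basal arrays 8.20 to 8.32 and its aggregates 8.22 to 8.59. In aggregates its adjusted p of 0.241 became 0.0174 when its 2 probe sets were averaged.

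The largest rises in Matrigel were those of brush border, bile acid, folate and fatty acid carriers. Slc3a1 rose by 3.27 ± 0.14 and Slc7a9 by 3.22 ± 0.14. Slc13a1 rose by 3.15 ± 0.20 and Slc51a by 2.73 ± 0.20. Slc46a1 rose by 2.63 ± 0.15, Slc27a4 by 2.29 ± 0.12 and Slc6a20a by 2.04 ± 0.17. These 7 genes had no Matrigel array within the range of their basal arrays.

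Further rises covered carnitine, creatine and vitamin C. Slc25a20 rose by 1.19 ± 0.12, Slc22a5 by 1.14 ± 0.11 and Slc6a8 by 1.60 ± 0.11. Slc23a1 rose by 1.36 ± 0.14, Slc25a15 by 1.29 ± 0.22, Slc35f5 by 1.83 ± 0.12 and Slc26a6 by 1.60 ± 0.15. Slc39a9 rose by 0.88, a call lost when its 3 probe sets were averaged (adjusted p = 0.275). Slc37a4 rose by 0.65 ± 0.11 and Slc38a3 by 0.65 ± 0.13. Slc16a1 and Slc27a2 were called higher by 0.33 and 0.46, and each call was lost when any 1 of several arrays was left out (6 arrays, adjusted p-values 0.0513 to 0.138, and 5 arrays, 0.0723 to 0.128).

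The falls in Matrigel were smaller than the rises. Slc43a3 fell by 1.52 (SE 0.14), from 8.79 to 9.59 in basal culture to 6.77 to 8.42, and Slc12a2 by 1.30 (SE 0.29). Slc1a4 fell by 1.00, Slc1a5 by 0.89, Slc7a11 by 0.66 and Slc7a1 by 0.57. Slc25a30 fell by 1.04, Slc29a1 by 0.75, Slc44a2 by 0.71, Slc19a2 by 0.64, Slc25a4 by 0.58 and Slc20a2 by 0.56. Slc7a6 fell by 0.70, a call lost when any 1 of 4 arrays was left out (adjusted p-values 0.0518 to 0.0639). Slc38a2 was not called, at -0.19 ± 0.10 (adjusted p = 0.209 by limma), and its Matrigel arrays read 10.78 to 10.98 against 10.86 to 11.29 in basal culture.

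Matrigel and aggregate cultures were compared directly. Most called members were lower in Matrigel: 62 of the 76 called, with 14 higher, against 26.7% of all genes called (12.7% lower, 13.9% higher). The median difference was -0.22 over members and -0.10 over all genes, and the 15 uncalled markers lay at a median of -0.24. Arrays did not overlap for 69 members, against 25.3% of all genes. Calls of at least 1 log2 unit numbered 2 higher and 9 lower, against 4.62%. Of the 116 brighter members, 37 were lower (all such genes 15.7%) and 12 higher (21.7%). Of the 138 dimmer members, 25 were lower (9.81%) and 2 higher (6.23%).

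Of the 62 lower members, 57 were also called higher in aggregates than in basal culture. Both comparisons use the same aggregate arrays, so agreement is partly built in, and this overlap was not counted over all genes. Slc13a1 was lower in Matrigel by -2.61 ± 0.20, Slc23a1 by -1.82 ± 0.14, Slc26a6 by -1.59 ± 0.15 and Slc3a1 by -1.49 ± 0.14. Slc37a4 and Slc6a20a both differed by -1.23, and Slc2a9 and Slc51a both by -1.16. For Slc2a9 the Matrigel arrays, at 7.53 to 8.11, lay in the basal range of 7.65 to 8.17 or just under it, and all aggregates lay at 8.76 to 9.26. Slc25a37 also fell back, by -1.02 ± 0.20. Slc7a9 differed by -0.50, and that call was lost when any 1 of 4 arrays was left out (adjusted p-values 0.0604 to 0.0987). Slc6a8 was not called, at -0.30 ± 0.11 (adjusted p = 0.0631 by limma, 0.0291 with the replicate block).

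Of the 14 members higher in Matrigel, 12 were also called lower in aggregates than in basal culture. This overlap again rests on shared aggregate arrays and was not counted over all genes. Slc12a2 was higher by 1.81 ± 0.29 and Slc38a2 by 1.49 ± 0.10, with no overlap between these cultures. Slc7a6 was higher by 0.99, Slc29a1 by 0.86, Slc25a4 by 0.86, Slc25a30 by 0.74, Slc44a2 by 0.74 and Slc41a1 by 0.62. Slc66a2, of a family of lysosomal amino acid carriers, was higher by 0.60 ± 0.11. Slc43a3 and Slc1a4 differed by -0.02 and 0.03 and were not called. Slc1a5 was called higher by 0.42, a call lost when any 1 of 9 arrays was left out (adjusted p-values 0.0618 to 0.135).

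The lines were then compared over the cultures. Line 14B3 differed from 9A1 in 16 members, 9 higher and 7 lower, against 6.01% of all genes (2.57% higher, 3.45% lower). When a block for replicate was added inside each line, 26 were called, 12 higher and 14 lower. Without replicate 1 of basal 9A1 the count was 9, and without replicate 2 of basal 14B3 it was 10. Differences of at least 1 log2 unit were called in 3 members, against 1.11%. Arrays of the lines did not overlap in 1 member, Slc22a4, against 0.928% of all genes.

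Slc22a4, a carrier of the antioxidant ergothioneine, was higher in 14B3 by 1.04 ± 0.09 with an adjusted p of 3.19e-05 by limma. In 9A1 it read 5.83 to 6.58 over the cultures and in 14B3 6.77 to 7.49, all within the range of dim signals. Slc35c1 was higher in 14B3 by 1.01 ± 0.12, and its 9A1 aggregates read 9.17 and 8.74 against 10.14 and 10.25 in 14B3. Slc1a5 was higher by 0.92 ± 0.11, with basal 9A1 at 8.59 and 8.51 and basal 14B3 at 9.62 and 10.19. Slc44a3, a choline transporter-like gene, was higher by 0.73 ± 0.09. The members lower in 14B3 were led by Slc6a20a, at -1.38 ± 0.14, and Slc43a3, at -0.91 ± 0.12. Slc23a1 was lower by -0.56 ± 0.12 and Slc41a1 by -0.46 ± 0.07.

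Choline transporter-like genes of family Slc44 went both ways between lines. Slc44a1 was higher in 14B3 by 0.34 and Slc44a2 lower by -0.56. The call of Slc44a1 was lost without replicate 1 of basal 9A1 (adjusted p = 0.0511) or replicate 2 of basal 14B3 (adjusted p = 0.0531), and that of Slc44a2 when any 1 of 7 arrays was left out (0.0543 to 0.0785). The calls of Slc25a4 at 0.40, Slc7a1 at 0.30 and Slc5a8 at -0.37 were each lost when any 1 of 9, 11 and 9 arrays was left out, with adjusted p-values up to 0.141, 0.150 and 0.0898.

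The responses to culture were also tested within each line. Aggregates changed 97 members within 9A1 (36.9% of all genes) and 88 within 14B3 (33.2%). Of the 254 members, 75 were called in both lines in the same direction, against 28.1% of all genes. By limma 0 members were called in opposite directions, against 5 of the 12393 genes. At an unadjusted p below 0.05 the numbers of members in the same and in opposite directions were 90 and 1, which was not counted over all genes. Matrigel changed 45 members in each line (17.8% and 16.5% of all genes), 32 of them in both in the same direction (1363 of the 12393 genes). Again 0 members were called in opposite directions, against 5 of the 12393 genes (48 and 0 members at an unadjusted p below 0.05). Calls in opposite directions were rare over all genes too, so the counts of 0 are not particular to the members. The difference between lines in the response to aggregates was called for 3 members, against 0.468% of all genes, and for Matrigel for 1 member, against 0.686%. With the replicate block these counts were 6 and 3.

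Slc6a20a rose by 4.76 in 9A1 and by 1.76 in 14B3 aggregates, a difference of -3.00 with an adjusted p of 0.00144 by limma, and it was called whichever array was left out. Its basal arrays and its 14B3 aggregates lay within the range of dim signals, so these differences may be too small. Slc37a4 rose by 2.52 in 9A1 and by 1.24 in 14B3, a difference of -1.28 (adjusted p = 0.0254). Slc5a8, a sodium-coupled carrier of short-chain monocarboxylates, read 7.15 and 7.40 in the 9A1 aggregates and 5.85 to 6.20 on all other arrays. All its levels lie within the range of dim signals, and the difference was -1.32 (adjusted p = 0.0234). The calls of Slc37a4 and Slc5a8 were lost when any 1 of 7 and any 1 of 6 arrays was left out, with adjusted p-values up to 0.150 and 0.139. All were larger in 9A1, and the count fell to 1, Slc6a20a, without either basal array of either line or without replicate 2 of either line's aggregates.

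In Matrigel Slc47a1 rose in 9A1 from 6.35 and 6.68 to 8.45 and 7.87, while in 14B3 it stood at 7.85 and 7.88 in basal culture and at 7.85 and 7.72 in Matrigel. These levels all lie within the range of dim signals. The difference was -1.72 (adjusted p = 0.0111 by limma). It was lost without replicate 1 of basal 9A1 (adjusted p = 0.0672) or replicate 2 of basal 14B3 (adjusted p = 0.050), which brought the count to 0. Without replicate 1 of Matrigel 9A1 the count was 2, the added gene being Slc23a1.

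**Figure D4:**
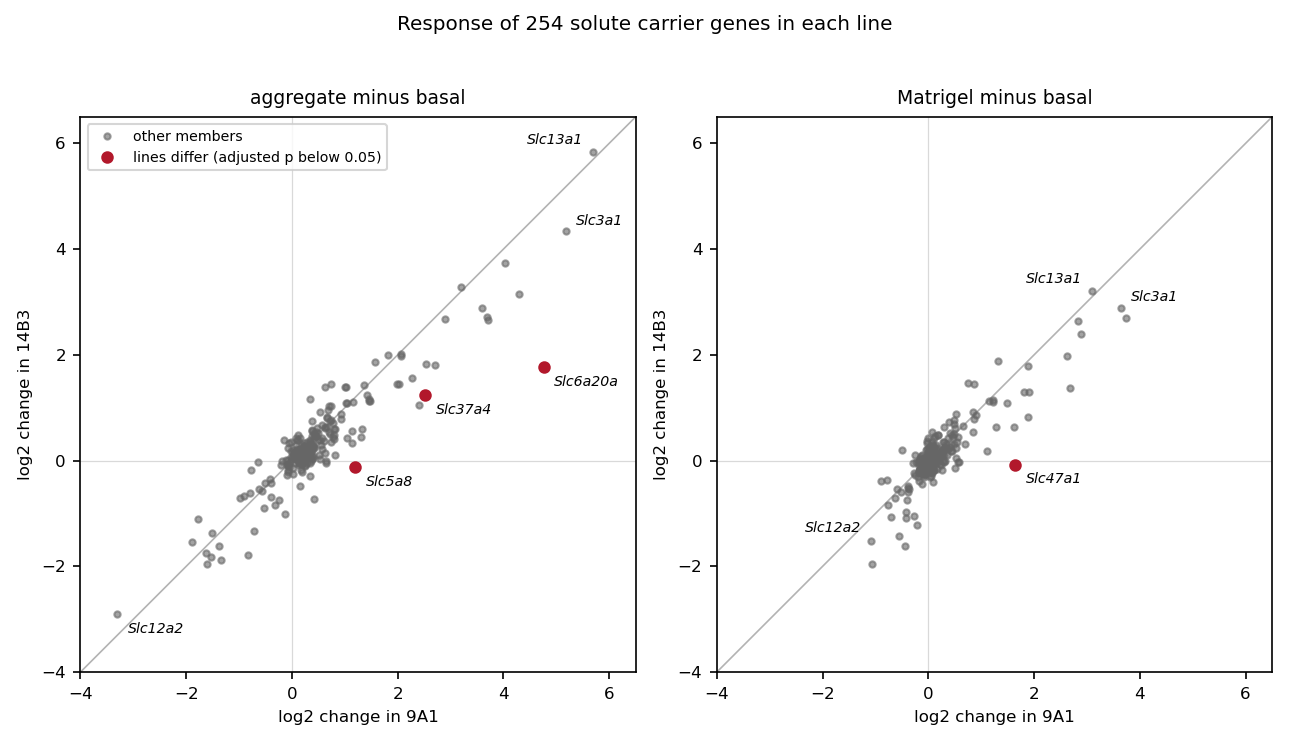
Log2 difference from basal culture in line 14B3 against that in line 9A1 for the 254 members, in aggregates (left) and Matrigel (right), with the line of equal change. Red points are the 4 calls of a difference between lines, Slc6a20a, Slc37a4 and Slc5a8 in aggregates and Slc47a1 in Matrigel, and all lie below the line.

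Partners of the carriers were counted from a list of 15 names, of which 9 were measured. In aggregates 5 rose and 1 fell (22.9% and 23.4% of all genes), and in Matrigel 4 rose (14.1%). Atp1b1, a beta subunit of the sodium pump whose gradient drives many carriers, read 10.93 to 11.21 in basal culture, 13.49 to 13.73 in aggregates and 12.67 to 13.42 in Matrigel. It rose by 2.55 ± 0.12 and 1.97 ± 0.12. Atp1b3, another beta subunit, fell by 1.17 (SE 0.19) in aggregates. Mpc1, of the mitochondrial pyruvate carrier, rose by 1.59 ± 0.14 in aggregates and Pdzk1, a scaffold of apical carriers, by 0.87 ± 0.11. Bsg, the chaperone of lactate carriers such as Slc16a1, rose by 0.78 ± 0.15. Slc3a2, the heavy chain that serves Slc7a6, Slc7a7 and Slc7a11, rose by 0.79 ± 0.12. Cltrn, which carries amino acid transporters to the surface, lay at 4.26 to 4.44 on every array and was not called.

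The organic anion transporters of the Slco family, whose liver members take up bile salts and drugs, were counted beside the members. Of 11 measured, 2 rose in aggregates (22.9% of all genes), Slco1c1 by 0.35 and Slco6c1 by 0.37, and none was called in Matrigel against basal culture. Both were dim, with basal means of 6.20 and 4.71, and their rises were of the size of those of the uncalled markers. Between lines, Slco2a1 was called higher in 14B3 by 0.50 (2.57% of all genes) and Slco3a1 lower by -0.71 (3.45%). Slco1b2, the main liver member, read 6.61 to 7.18 over all arrays.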

How the data were processed

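Total RNA of 12 cultures was hybridised as biotin-labelled cRNA to Affymetrix mouse 430A arrays, per the labels' protocols. The authors deposited linear signal intensities per probe set, and the submitters' processing notes name R 2.3.1 and RMA. RMA corrects background, normalizes the arrays to each other and sums up probes, so a shift shared by most genes would not be seen. Genome build and annotation are not given in the sources used here. The log2 of each value was taken. Probe sets were named from GEO's platform annotation, which can be old: of 22690, the 20380 with a single symbol were used, which left out 691 with more symbols, 1555 without one and 64 controls. Dim genes were not filtered out.

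Group means of the 6 groups were fitted in R 4.3.3 by limma 3.58.1 (lmFit, eBayes), leaving 6 residual degrees of freedom, with two-sided p-values adjusted by Benjamini-Hochberg over 12393 genes. The script was tested on simulated data. Culture contrasts were averaged over lines and the line contrast over cultures. The main fit, which gave the counts and p-values unless stated, has no block for replicate. Replicate differences (2 minus 1) correlated over genes in all 15 pairs of groups, with r of 0.10 to 0.64. Within a line r was 0.10 to 0.42, and the highest values, 0.64 and 0.57, were between lines. In an alternative fit the replicate numbers were therefore taken to pair the arrays, with a block inside each line. A fit with this block is given beside a described result whose call it changes or whose count it shifts more than 1.5 times. Calls that it began in comparisons not described for a gene are not listed. Also tried were quantile normalization, median centring, averaging all probe sets of a gene, genes above the median level, a trend in eBayes, calls of at least 1 log2 unit, and leaving out each array.

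Members, marker lists and tests were chosen with earlier results of these data known. Named genes were, per contrast, the 8 largest called rises and falls with the same direction in each line (or culture) and no overlap between arrays, the largest called change per substrate class, the 4 largest called differences between lines in each direction, and 26 names, of which 21 were measured. The rest were not analysed here. After their values were seen, 16 further members were chosen for description (Slc22a5, Slc25a20, Slc6a8, Slc7a7, Slc7a1, Slc39a9, Slc39a7, Slc31a1, Slc23a2, Slc44a1, Slc44a3, Slc35c1, Slc12a4, Slc20a2, Slc25a10 and Slc41a1), as was Slc6a20b. Figures were drawn with matplotlib 3.10.9 in Python 3.11.15.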

Additional observations from a re-analysis of the deposited data

Results flagged for a closer look

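The response to culture differed between the lines by the interaction test in 4 members. In aggregates the difference (14B3 minus 9A1) was -3.00 log2 units for Slc6a20a, -1.32 for Slc5a8 and -1.28 for Slc37a4, and in Matrigel it was -1.72 for Slc47a1. All 4 rose more in 9A1, and the levels of Slc5a8 and Slc47a1 lie within the range of dim signals. So do those of Slc6a20a in basal culture and in 14B3 aggregates, and those of Slc37a4 in basal 9A1. For Slc47a1 the basal level was higher in 14B3 (7.85 and 7.88) than in 9A1 (6.35 and 6.68), and the aggregates of both lines lay between 8.86 and 8.98. Groups of 2 arrays are too small for a check of single arrays that stand apart.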

How the results depend on the processing

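No call of a named member reversed its direction under the alternatives run. Among called members with over 1 probe set, every probe set was called for 27 of 45 in aggregates and 18 of 28 in Matrigel. The same held for 16 of 29 in Matrigel against aggregates and 1 of 4 for the lines. In 0 members were probe sets called in opposite directions. Counts of called members in aggregates, Matrigel and Matrigel against aggregates were 119, 64 and 76, and 136, 72 and 113 with the replicate block. Calls of at least 1 log2 unit numbered 44, 22 and 11 in these comparisons and 3 for the lines. Genes above the median level alone, where 116 members enter, gave 78 members in aggregates, 7 for the lines, 1 for the aggregate response by line and 0 for the Matrigel response. The replicate block gave 26, 6 and 3 for the last 3 of these (16, 3 and 1 without it). Leaving out 1 array gave 104 to 122, 53 to 64, 60 to 82, 9 to 17, 1 to 4 and 0 to 2 calls in the same order. The cause of these moves was not tested, apart from the fewer members that enter or the added threshold. Some calls described above also depended on normalization. Quantile normalization ended those of Slc37a4 (aggregate response by line) and Slc1a5 (Matrigel against aggregates). Median centring ended those of Slc4a2 in aggregates, Slc16a1 in Matrigel, and Slc25a4 and Slc7a1 between lines. Other calls began, as those of Slc34a2 and Slc25a13 in Matrigel against aggregates under both settings. These 2 were also called with the replicate block (adjusted p = 0.00946 and 0.0192 by limma). With 2 arrays per group, small differences of dim members cannot be settled, and differences that start or end near background may be too small.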
